A study of Mus musculus with 34 samples.

Results

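The comparison described here set 5 days of encorafenib against 1 day of encorafenib in the mouse colorectal cancer line NaJa-D. Its members were the 6 libraries titled NaJa-D with encorafenib, 3 at day 1 and 3 at day 5, out of 34 libraries in the series, and all 14107 genes of the count table were tested. The same interval in the solvent DMSO (3 and 3 NaJa-D libraries) was used to show which changes also occurred without inhibitor, and the encorafenib libraries of the lines NaJa-F (3 and 2) and NaJa-G (3 and 3) to show where NaJa-D differed. NaJa-D was grown from cells of the peritoneal lavage of a recipient of transplanted colon organoids, so it represents 1 animal. All groups, the DMSO controls included, were C57BL/6N cells of the genotype VillinCreERT2, BrafV600E/+, Trp53R172H and APCdel, in which a tamoxifen-activated Cre under the villin promoter had switched the alleles in the organoids before the line existed. Encorafenib, which blocks the kinase made from the mutant allele, was present at 0.5 µM. Medium with inhibitor or DMSO was given at day 0 and, for the day 5 samples, again at days 2 and 4. Cells for both days were plated together, so the day 5 cultures had also been in the dish for longer, and time in culture and time in inhibitor were told apart only through the DMSO arm.

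BRAF passes signals from RAS to the kinases MEK and ERK, and the V600E mutation keeps it active without RAS. ERK drives transcription of growth genes and also of its own inhibitors, among them the dual-specificity phosphatases and the Sprouty proteins. When a BRAF inhibitor lowers ERK activity, these feedback genes fall, receptors such as EGFR are freed from restraint, and colorectal cancer cells are known for restoring ERK signaling through EGFR. The study asked how the transcriptome responds to 1 and to 5 days of inhibitor. Day 5 against day 1 within the treated arm asks which genes moved after the first response.

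Total counts of the 6 libraries ranged from 52598701 to 74510799, and abundance is given below as CPM, the counts relative to library size after scaling with TMM factors. Replicate 3 of encorafenib day 1 stood apart. Its log2 CPM across genes had a Pearson r of 0.988 with both other libraries of its group, against 0.997 between those 2 and 0.995 to 0.996 within day 5, and it reached 0.979 with libraries of DMSO day 1, where the other 2 reached 0.974. It was kept. Without it, 4408 genes were called between the days in place of 3772, of which 3252 were shared. A further library, replicate 3 of DMSO day 1, is NaJa-D by title and NaJa-G by its cell line tag. Its Pearson r was up to 0.995 with the 2 libraries beside it and at most 0.920 with NaJa-G at the same day in DMSO, and the title was followed. Nothing stated that replicates were separate cultures, so p-values measure the spread between these samples, which may be technical. The epithelial markers were all present, with Epcam, Cdh1, Krt8, Krt18, Krt19, Vil1 and Cdx2 together at 6939 to 9077 CPM at day 1 and 6241 to 6887 CPM at day 5. Of 12 leukocyte and macrophage markers 2, Csf1r and Cd68, were among the genes tested (7.83 to 9.21 CPM together at day 1, 5.78 to 5.86 CPM at day 5), and of 6 endothelial markers only Kdr, at 0.205 to 0.485 CPM. Ptprc and Pecam1, the defining genes of leukocytes and endothelium, were not among the genes tested. Of 10 fibroblast and mesothelial markers 7 were, and their sum was 8.08 to 8.73 CPM at day 1 and 16.1 to 16.7 CPM at day 5 (DMSO 3.15 to 4.39 and 6.04 to 6.58 CPM). Dcn, a matrix proteoglycan of fibroblasts, was at 0.437, 0.308 and 0.639 CPM at day 1 and 4.302, 3.397 and 4.04 CPM at day 5, and Upk3b, a mesothelial surface gene, at 2.81, 2.67 and 3.08 CPM and 6.400, 5.93 and 6.22 CPM. Both were called, and the other 5 tested were not, with Pdgfrb at -1.67 (adjusted p = 0.0865) and Col1a1 at 0.55 (adjusted p = 0.0453) on the log2 scale. Upk3b rose less than in DMSO (difference -0.94, adjusted p = 0.00745). The paper reports that host cells were lost over passages, and that encorafenib raised decorin transcripts in each NaJa line. Whether such cells were present, and their part in any change, was not tested. In bulk samples fewer cells of a type and less RNA per cell cannot be told apart, and this holds for every change given below.

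Between day 1 and day 5 of encorafenib, 3772 genes changed (26.7% of those tested), of which 1763 were higher (12.5%) and 2009 lower (14.2%) at day 5. Calls were made at a Benjamini-Hochberg adjusted p below 0.01 in limma, fitted to all 34 libraries, which share 1 estimate of the spread. A fit to the 6 libraries alone called 1270 genes, of which 1264 were shared, and a fit to the 12 NaJa-D libraries 2511, of which 2457 were shared. Most of these changes were small. The median absolute log2 fold change of the called genes was 0.39, and 160 genes rose and 194 fell by at least 1 on the log2 scale. Scaling by library size alone moved the median of all genes by 0.11 and raised the genes higher at day 5 from 46.7% to 75.0% of all calls. Directions below are relative to the median gene.

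The genes that fell furthest included Slurp1, Psca, Ckmt1, Aldh3a1 and Krt14. They belonged to the 12 genes with the lowest log2 fold change once only called genes with a mean of at least 2 log2 CPM and separated days were considered. Slurp1 (ENSMUSG00000022596, chromosome 15, 74724318 to 74728034, minus strand, GRCm38), a secreted protein of keratinizing epithelia, was at 83.02, 90.8 and 92.9 CPM at day 1 and 16.9, 16.5 and 18.2 CPM at day 5. Every day 1 library lay far above every day 5 library, and the log2 fold change was -2.37 (SE 0.09, adjusted p = 1.30e-16). In DMSO the same gene was lower at day 1 and rose. It was at 10.6, 12.997 and 11.3 CPM and then at 21.2, 26.7 and 21.4 CPM, a log2 change of 0.98 (SE 0.12, adjusted p = 2.04e-07). The difference of both changes was -3.35 (SE 0.15, adjusted p = 3.47e-15), the most negative among the genes eligible to be named. Psca (ENSMUSG00000022598, chromosome 15, 74714839 to 74717069, plus strand), a surface antigen of stem and surface epithelium, was at 76.1, 80.2 and 84.9 CPM at day 1 and 23.1, 22.8 and 26.9 CPM at day 5, with no overlap and a log2 fold change of -1.73 (SE 0.06, adjusted p = 2.07e-17). Its DMSO libraries stayed below the encorafenib libraries at both days, at 3.75, 4.29 and 3.44 CPM and 7.46, 8.38 and 7.63 CPM. Ckmt1, mitochondrial creatine kinase, fell from 7.99, 8.24 and 9.28 CPM to 1.902, 1.94 and 1.97 CPM (log2 fold change -2.12, SE 0.14, adjusted p = 5.23e-12), which brought it below the DMSO day 5 libraries at 2.78, 3.07 and 3.28 CPM. Aldh3a1, an aldehyde dehydrogenase of barrier epithelia, fell from 26.8, 23.5 and 28.2 CPM to 6.65, 7.68 and 7.56 CPM (log2 fold change -1.83, SE 0.09, adjusted p = 1.19e-14). Its DMSO libraries lay between 6.87 and 7.13 CPM at both days, in the range of the encorafenib day 5 libraries. Krt14, a basal keratin, fell from 42.2, 43.8 and 61.3 CPM to 15.8, 14.5 and 14.6 CPM (log2 fold change -1.69, SE 0.10, adjusted p = 1.29e-13), and it also fell in DMSO, from a lower level, by 0.64 on the log2 scale.

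Most tested genes of the absorptive enterocyte fell. Of 24 enterocyte genes 12 were in the table, and 8 fell, 1 rose and 3 were not called, with a median log2 fold change of -0.93 against 6.5e-04 over all genes. In DMSO 4 of the 12 rose and 3 fell, with a median of 0.17 (over all genes 13.7% rose and 15.3% fell). The difference between the arms was negative and called for 5 of the 12 (background 4.54%) and positive for none (background 2.76%). Vil1 (ENSMUSG00000026175, chromosome 1, 74409376 to 74435559, plus strand), villin of the brush border, was at 10.4, 10.1 and 10.04 CPM at day 1 and 3.502, 2.96 and 3.07 CPM at day 5. The days did not overlap, and the log2 fold change was -1.69 (SE 0.08, adjusted p = 8.04e-15). The DMSO libraries went the other way, from 6.26, 6.64 and 6.19 CPM to 14.04, 13.2 and 13.2 CPM, and the difference was -2.78 (SE 0.11, adjusted p = 1.85e-16). Lgals4 (ENSMUSG00000053964, chromosome 7, 28833854 to 28841708, plus strand), an intestinal galectin, was at 20.2, 19.6 and 14.2 CPM and then 6.79, 6.39 and 7.598 CPM in encorafenib (log2 fold change -1.38, SE 0.13, adjusted p = 3.12e-09). In DMSO it was at 1.09, 1.27 and 1.12 CPM and 3.32, 4.82 and 4.49 CPM, so it rose there and the arms approached each other (difference -3.21, SE 0.31, adjusted p = 2.61e-08). Krt20, the keratin of differentiated colon cells, fell from 21.2, 20.5 and 21.7 CPM to 9.35, 8.98 and 8.72 CPM (log2 fold change -1.23, SE 0.07, adjusted p = 3.46e-13), while in DMSO it rose by 0.31 on the log2 scale. Cdh17, liver-intestine cadherin, fell from 4.92, 7.26 and 6.88 CPM to 0.942, 1.08 and 1.06 CPM (log2 fold change -2.58, SE 0.21, adjusted p = 1.38e-10), and in DMSO it was far higher at both days (55.99, 58.7 and 61.3 CPM, then 35.3, 34.1 and 26.6 CPM). Ceacam1, Fabp2, Dhrs9 and Aqp8 were the other members that fell, by 0.51 to 1.53 on the log2 scale, and Aqp8 lost its call without any 1 of 4 libraries (-1.01 to -1.61, adjusted p up to 0.0279). Car2, a cytosolic carbonic anhydrase, was the member that rose, from 19.9, 18.6 and 20.6 CPM to 30.9, 30.8 and 29.4 CPM, and it rose in DMSO too (0.79). Transcription factors of intestinal identity had a median of -0.12, and their counts are set against 12.5% of all genes rising and 14.2% falling. Of 15 tested, 2 fell (among them Elf3, log2 fold change -0.58, SE 0.07, adjusted p = 4.17e-07), 1 rose (Tfcp2l1, 0.31; without replicate 1 of day 5 0.25, adjusted p = 0.0106), and Cdx2, the caudal homeobox factor of the intestine, was at 13.97, 13.2 and 15.9 CPM and 12.4, 14.1 and 12.8 CPM, with overlapping days.

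**Figure D1:**
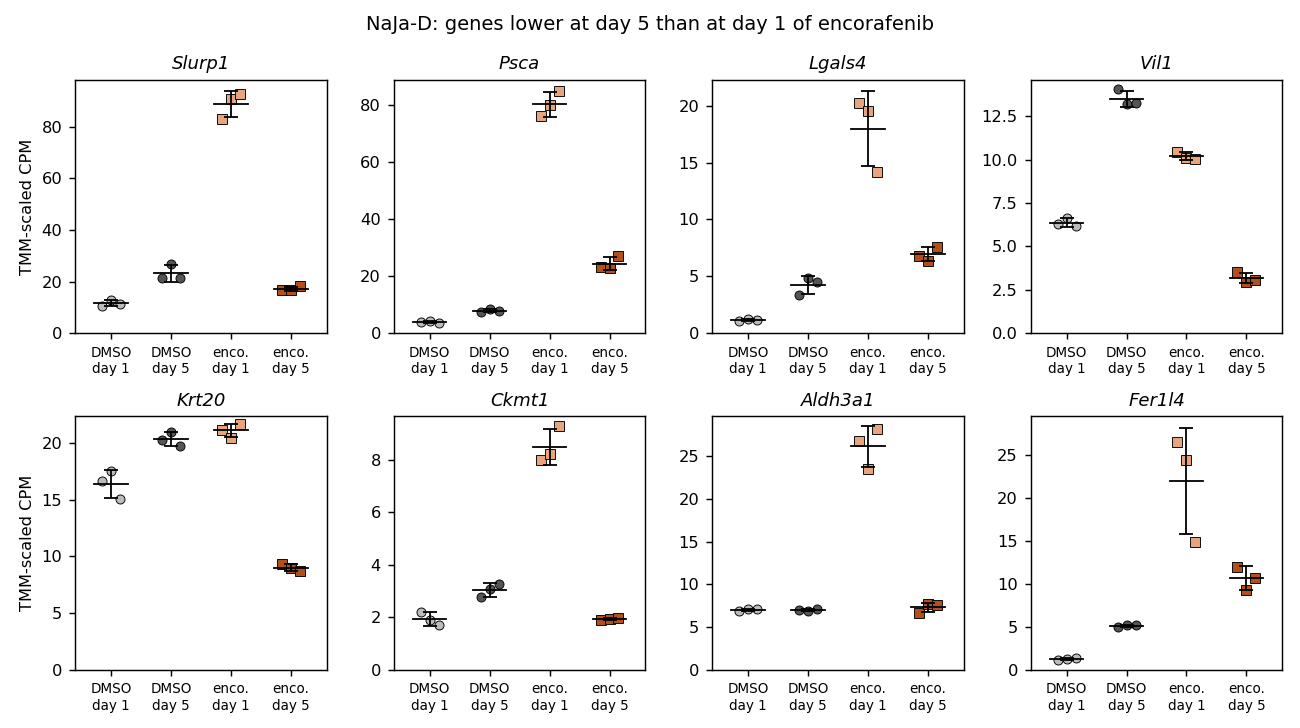
TMM-scaled CPM (y axis, from 0) of 8 genes in the 12 NaJa-D libraries, by treatment and day (x axis), with points for libraries and bars for mean and SD (n = 3). In each panel the encorafenib day 1 libraries lie above the encorafenib day 5 libraries, while the DMSO libraries of Slurp1, Psca, Lgals4, Vil1 and Fer1l4 are higher at day 5 than at day 1 and those of Aldh3a1 stay between 6.87 and 7.13 CPM.

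Prl2c3, of the prolactin family, had the lowest log2 fold change between the days among the genes eligible to be named. It was at 16.9, 18.5 and 22.8 CPM at day 1 and 0.889, 1.04 and 1.01 CPM at day 5 (log2 fold change -4.28, SE 0.22, adjusted p = 3.30e-14), and in DMSO at 23.6, 23.6 and 28.5 CPM and 3.93, 3.98 and 3.85 CPM (log2 fold change -2.68, SE 0.15, adjusted p = 1.13e-13). It fell in both arms, and the difference was -1.60 (SE 0.27, adjusted p = 1.33e-04). Prl2c genes are near-identical copies, so the split of reads between them is uncertain; the family member Prl2c2 had a log2 fold change of -4.15. Ccr1, a chemokine receptor, fell from 16.9, 17.8 and 17.6 CPM to 3.38, 3.698 and 3.71 CPM (log2 fold change -2.27, SE 0.10, adjusted p = 3.75e-16) and fell by 1.22 in DMSO. Mitochondrially encoded genes, a list chosen after their values were seen, fell in both arms. In encorafenib 14 of 16 fell (median -1.13), where 14.2% of all genes fell, and in DMSO 16 of 16 (median -1.44), where 15.3% fell. The differences between the arms lay between -0.14 and 0.53 on the log2 scale, with adjusted p values of at least 0.0167 (over all genes 7.29% were called for the difference). Their share of all counts was 4.97% to 5.82% at day 1 and 2.03% to 2.21% at day 5 of encorafenib, and 6.59% to 8.01% and 2.30% to 2.68% in DMSO. mt-Co1, a subunit of cytochrome oxidase, was at 19688, 23238 and 26198 CPM and then 6899.5, 6928 and 7494 CPM, a log2 fold change of -1.69 (SE 0.13, adjusted p = 5.04e-11), and mt-Nd4, of complex I, had -1.75. Gm10222 and Gm28439 (-1.73 and -1.69) are nuclear copies that matched mt-Nd4l and mt-Nd4 with 100% identity over their 294 and 876 bases, so their reads cannot be told apart from mitochondrial ones. The part of this share in other changes was not tested.

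The genes with the highest log2 fold changes were of several kinds. Cxcl15 (ENSMUSG00000029375, chromosome 5, 90794534 to 90803067, plus strand), a chemokine of epithelial cells, was at 3.69, 4.897 and 2.54 CPM at day 1 and 28.8, 26.96 and 29.03 CPM at day 5, with no overlap. Its log2 fold change was 2.96 (SE 0.17, adjusted p = 9.70e-14). In DMSO it rose further on the log2 scale, from 0.461, 0.985 and 0.218 CPM to 12.7, 16.3 and 13.6 CPM (log2 fold change 4.87, SE 0.38, adjusted p = 6.97e-11). That change started below 1 CPM, and the DMSO libraries stayed below those of encorafenib at both days. Cp, ceruloplasmin, Trpv3, a cation channel of epithelia, Pgr, the progesterone receptor, Pdzrn3, a ubiquitin ligase, and Mgat4c, of the N-glycan branching family, rose by 1.56 to 1.71 in encorafenib and by 1.16 to 1.73 in DMSO, all called in both arms. Cd36, a fatty acid receptor, rose from 4.83, 4.79 and 4.29 CPM to 16.6, 14.7 and 15.7 CPM (log2 fold change 1.74, SE 0.09, adjusted p = 4.65e-14), while its DMSO libraries were all below 0.52 CPM. Zic2, a zinc finger factor, was at 1.78, 1.95 and 4.38 CPM and 7.16, 13.3 and 7.08 CPM, a wide spread within each day (log2 fold change 1.91, SE 0.51, adjusted p = 0.00425), and lost its call without replicate 2 of day 5 (1.56, adjusted p = 0.0318) and without replicate 1 or 2 of day 1 (1.65 and 1.76).

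Other genes rose in encorafenib and were not called, or fell, in DMSO. Nts (ENSMUSG00000019890, chromosome 10, 102481756 to 102490486, minus strand), which encodes the gut peptide neurotensin, was at 81.3, 93.8 and 103 CPM at day 1 and 263, 271 and 262 CPM at day 5. The days were well apart, and the log2 fold change was 1.53 (SE 0.10, adjusted p = 1.54e-12). In DMSO Nts was at 11.3, 16.4 and 15.5 CPM and 8.94, 12.8 and 9.88 CPM, which overlapped, and the difference between the arms, 1.99 (SE 0.17, adjusted p = 4.00e-09), was the most positive among the genes eligible to be named. Spsb1 (ENSMUSG00000039911, chromosome 4, 149896283 to 149955043, minus strand), an adaptor of a ubiquitin ligase, rose from 3.25, 3.596 and 4.08 CPM to 12.4, 9.17 and 11.01 CPM (log2 fold change 1.56, SE 0.11, adjusted p = 2.71e-11). Its DMSO libraries lay at 5.07, 4.79 and 4.83 CPM and 4.04, 4.300 and 4.74 CPM, all near the level of encorafenib day 1, and the difference was 1.74 (SE 0.18, adjusted p = 6.03e-08). Pappa (ENSMUSG00000028370, chromosome 4, 65124174 to 65357509, plus strand), a protease that releases insulin-like growth factor from its binding proteins, rose from 8.46, 8.03 and 9.66 CPM to 30.4, 28.3 and 24.2 CPM (log2 fold change 1.67, SE 0.08, adjusted p = 1.42e-14). Its DMSO libraries lay between 1.35 and 2.18 CPM on both days (difference 1.58, SE 0.22, adjusted p = 9.96e-06). Wnt6, a WNT ligand, rose from 15.1, 17.8 and 25.3 CPM to 52.2, 60.8 and 50.6 CPM (log2 fold change 1.54, SE 0.14, adjusted p = 1.80e-09), with 0.54 (adjusted p = 0.016) in DMSO and a difference of 0.99 (SE 0.23, adjusted p = 0.00358). Cldn1, a claudin of tight junctions, rose from 4.12, 3.77 and 5.19 CPM to 9.12, 8.51 and 8.62 CPM (log2 fold change 1.02, SE 0.11, adjusted p = 6.11e-08), with -0.57 (adjusted p = 0.0187) in DMSO and a difference of 1.59 (SE 0.22, adjusted p = 1.17e-05). Cntn2, a neural adhesion protein, rose from 12.99, 12.996 and 15.7 CPM to 25.6, 23.8 and 21.5 CPM while it fell in DMSO from 3.94, 4.97 and 5.31 CPM to 3.502, 2.85 and 2.26 CPM (difference 1.49, SE 0.17, adjusted p = 2.94e-07).

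Over time in encorafenib, ERK output genes did not move as a group. Of 13 feedback inhibitors tested, 4 rose, 1 fell and 8 were not called in encorafenib (median 0.11), where 12.5% of all genes rose and 14.2% fell. In DMSO 1 rose and 6 fell (13.7% and 15.3% of all genes). The difference between the arms was positive and called for 4 of them, Dusp4, Dusp5, Dusp6 and Errfi1, against 2.76% of all genes, and negative for none, against 4.54%. Over the 13 genes its median was 0.26, against -0.0036 over all genes. Dusp4, an ERK phosphatase, was at 90.96, 86.1 and 107 CPM at day 1 and 195, 189 and 185 CPM at day 5 of encorafenib. The days were apart, and the log2 fold change was 1.01 (SE 0.09, adjusted p = 4.01e-10). It rose in DMSO as well (121, 117 and 107 CPM, then 193, 158 and 154 CPM), and the difference, 0.47 (SE 0.12, adjusted p = 0.00864), lost its call in 15 of the alternative fits. Dusp6, the cytoplasmic ERK phosphatase, was at 88.2, 91.1 and 102 CPM and 103, 100.4 and 104 CPM in encorafenib, which overlapped (log2 fold change 0.13, adjusted p = 0.162). In DMSO it fell from 138, 134 and 139 CPM to 101, 101 and 99.4 CPM (log2 fold change -0.45, SE 0.07, adjusted p = 1.74e-05). At day 5 the libraries of both treatments lay between 99.4 and 104 CPM, where at day 1 those of encorafenib had been lower by 0.55 on the log2 scale. Dusp5, a nuclear phosphatase, fell by 0.47 in encorafenib and fell by 1.20 in DMSO. Spry1 and Spred2, inhibitors upstream of RAF, rose (0.33 and 0.38), as did Errfi1, an inhibitor of EGFR (0.21), which fell in DMSO (-0.38) and lost its call in encorafenib without any 1 of 4 libraries (0.17 to 0.21). Spry4, the member furthest below DMSO at day 1 (encorafenib against DMSO -1.68, adjusted p = 4.90e-10), was at 3.21, 3.25 and 3.68 CPM and 2.33, 2.86 and 2.89 CPM and remained below DMSO at day 5 (-1.26, adjusted p = 5.64e-07).

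Of 19 transcription factors under ERK control, 4 rose, Atf3, Klf4, Ier2 and Etv4, and 1 fell, Fosb, with a median of 0.14 (of all genes 12.5% rose and 14.2% fell). In DMSO 4 rose and 7 fell (13.7% and 15.3% of all genes). The difference between the arms had a median of 0.25. It was positive and called for 2, against 2.76% of all genes, and negative for none, against 4.54%. Ier2 and Etv4 each lost their call without any 1 of 4 libraries (0.43 to 0.50 and 0.22 to 0.25). Egr1 (ENSMUSG00000038418), an immediate early factor, was at 14.9, 14.6 and 15.7 CPM at day 1 and 13.7, 13.2 and 12.8 CPM at day 5 of encorafenib, a log2 fold change of -0.18 (SE 0.10, adjusted p = 0.169). In DMSO it fell from 15.1, 12.7 and 12.6 CPM to 4.55, 4.39 and 3.89 CPM (log2 fold change -1.66, SE 0.15, adjusted p = 8.14e-10). The difference was 1.47 (SE 0.18, adjusted p = 1.37e-06), with the larger move in DMSO. Atf3, a stress factor, rose from 15.5, 14.7 and 17.7 CPM to 23.4, 22.5 and 22.9 CPM (log2 fold change 0.53, SE 0.07, adjusted p = 4.12e-07), with DMSO at 0.07 (adjusted p = 0.545). Fosb fell in both arms (-0.60 and -1.13). Etv4 and Etv5, ETS factors, were below DMSO at both days (-1.20 and -1.20 for Etv4, -1.93 and -1.63 for Etv5), and Myc had -0.20 (adjusted p = 0.0371) over time in encorafenib. Of 13 further ERK output genes 7 fell and 1 rose (median -0.35), and in DMSO 6 fell and 1 rose. Their difference between the arms had a median of 0.06, with 1 called positive and 2 called negative. The largest falls among the 7 were in Hmga2, a chromatin protein (68.3, 72.6 and 63.8 CPM, then 36.9, 41.5 and 39.7 CPM; log2 fold change -0.79, SE 0.06, adjusted p = 1.62e-11), and Smoc2, a matrix protein (-0.75, SE 0.17, adjusted p = 9.04e-04; without replicate 2 of day 5 -0.65, adjusted p = 0.0122). Ccnd1, cyclin D1, fell from 404, 397 and 525 CPM to 343, 351 and 339.7 CPM (log2 fold change -0.35, SE 0.08, adjusted p = 7.14e-04; without replicate 3 of day 1 -0.21, adjusted p = 0.0112), and Emp1, Epha2, Phlda1 and Dusp8 fell by 0.32 to 0.46. Epha2 lost its call without replicate 2 of day 5 (-0.30, adjusted p = 0.0103) or replicate 3 of day 1 (-0.24, adjusted p = 0.0172). Plat, tissue plasminogen activator, was the member that rose (0.24, SE 0.07, adjusted p = 0.00429; 0.18 to 0.23 and not called without any 1 of 4 libraries), while it fell in DMSO (-0.49).

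Among the ligands of the EGFR family, 2 of 10 tested rose in encorafenib and none fell (of all genes 12.5% rose and 14.2% fell). In DMSO 4 fell and none rose (15.3% and 13.7% of all genes). The difference was positive and called for 3, Areg, Ereg and Hbegf, against 2.76% of all genes. Areg (ENSMUSG00000029378, chromosome 5, 91139599 to 91148432, plus strand), amphiregulin, was at 22.4, 25.2 and 24.9 CPM at day 1 and 40.8, 37.2 and 34.03 CPM at day 5. The days did not overlap, and the log2 fold change was 0.63 (SE 0.09, adjusted p = 5.95e-06). In DMSO it fell from 30.9, 35.1 and 38.6 CPM to 27.97, 29.3 and 21.3 CPM, so the order of the arms changed (encorafenib against DMSO -0.52, adjusted p = 4.79e-05 at day 1 and 0.52, adjusted p = 3.98e-05 at day 5; difference of the changes 1.05, SE 0.14, adjusted p = 3.53e-06). Btc, betacellulin, rose from 14.8, 17.4 and 15.4 CPM to 18.5, 19.9 and 19.6 CPM (log2 fold change 0.29, SE 0.07, adjusted p = 0.00131; without replicate 1 of day 1 0.24, adjusted p = 0.0162). Ereg, epiregulin, and Hbegf, heparin-binding EGF, had -0.07 (adjusted p = 0.412) and -0.21 (adjusted p = 0.0238) in encorafenib and fell in DMSO (-0.54 and -0.76). Egfr itself fell from 139, 141 and 160.1 CPM to 111, 108 and 107 CPM (log2 fold change -0.43, SE 0.06, adjusted p = 3.06e-06) and fell by 0.39 in DMSO. Erbb2 and Erbb3, its partner receptors, were not called, and Lrig1, which promotes breakdown of EGFR, fell (-0.23), while Lrig3 of the same family rose (0.97) from a low level of 0.557, 0.497 and 0.714 CPM. The fall of Lrig1 was not called without replicate 1 of day 5 (-0.21, adjusted p = 0.0149) or replicate 3 of day 1 (-0.17, adjusted p = 0.0223).

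**Figure D2:**
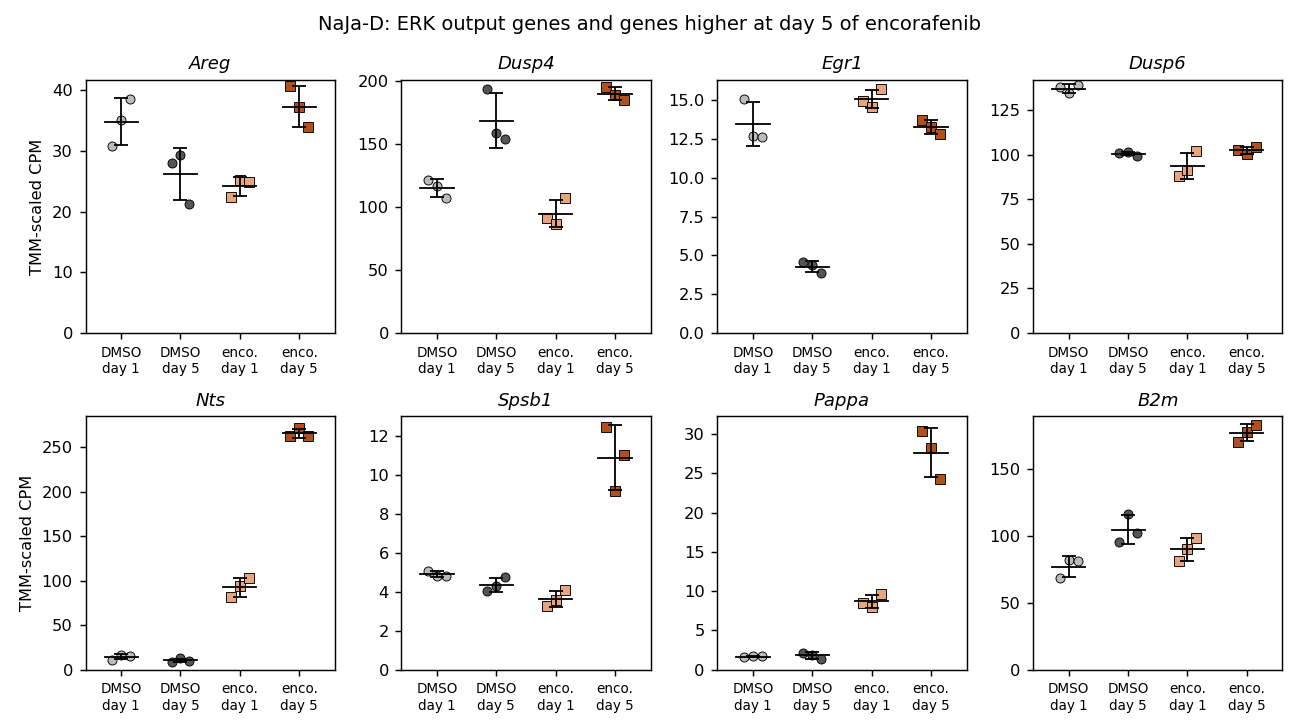
TMM-scaled CPM (y axis, from 0) of 8 genes in the 12 NaJa-D libraries, by treatment and day (x axis), with points for libraries and bars for mean and SD (n = 3). Areg, Nts, Spsb1 and Pappa are called higher at day 5 in encorafenib and not in DMSO, Dusp4 and B2m are higher at day 5 in both arms, and for Egr1 and Dusp6 the larger move is the fall of the DMSO libraries.

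The promoters of Nts and Areg, which were called as rising in the treated arm and not in DMSO, are shown with 2 motifs found in them. Windows of 250 bases before the start were taken from RefSeq (GRCm38.p6) and matched by symbol for 10225 of the 14107 genes. The Nts window (chr10:102490419-102490668, minus strand) holds an AP-1 motif (TGANTCA, the site of FOS and JUN factors), in capitals, whose first base lies 207 bases before the start. The Areg window (chr5:91139349-91139598, plus strand) holds a cyclic AMP response element (TGACGTCA), in capitals, 61 bases before the start. On either strand, 5.97% of all windows hold the AP-1 letters and 3.06% the response element. The AP-1 letters were in 0 of 7 windows of EGFR family ligands, 0 of 11 of feedback inhibitors, 0 of 13 of ERK target factors and 3 of 10 of enterocyte genes, and the response element in 1, 1, 0 and 0 of these.
Nts promoter: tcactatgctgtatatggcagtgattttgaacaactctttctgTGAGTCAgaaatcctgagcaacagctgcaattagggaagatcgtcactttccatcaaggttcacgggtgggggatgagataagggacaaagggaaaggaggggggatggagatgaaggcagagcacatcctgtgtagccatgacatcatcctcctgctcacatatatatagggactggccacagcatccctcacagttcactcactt
Areg promoter: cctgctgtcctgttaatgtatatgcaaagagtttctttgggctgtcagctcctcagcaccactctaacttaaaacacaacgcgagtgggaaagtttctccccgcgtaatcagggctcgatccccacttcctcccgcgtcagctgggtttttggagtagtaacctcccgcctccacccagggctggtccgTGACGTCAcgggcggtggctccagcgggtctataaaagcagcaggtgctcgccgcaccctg
These matches describe the letters of the windows and were not tested as sites. The windows of Slurp1, Aldh3a1, Psca, Egr1 and Pappa were not analysed here.

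In the DMSO arm 4090 genes changed between the days (29% of those tested; 1938 higher and 2152 lower), so about as many genes changed without inhibitor as with it. Under library size alone the DMSO calls were 4137 higher and 926 lower, and those of encorafenib 3352 and 1116. The arms share no library. They shared 1756 calls in the same direction, 46.6% of the encorafenib calls and 42.9% of the DMSO calls, with 761 higher in both and 995 lower in both. Over all 14107 genes the log2 fold changes of the arms had a Pearson r of 0.45 and a Spearman correlation of 0.45, given as a description across genes, which are not independent. In opposite directions, 19 genes rose in encorafenib and fell in DMSO, and 68 fell in encorafenib and rose in DMSO. The difference between the changes was called for 1029 genes (7.29%), 389 more positive in encorafenib (2.76%) and 640 more negative (4.54%), and for 33 and 148 of these it was at least 1 on the log2 scale. Without replicate 3 of encorafenib day 1 the difference was called for 3104 genes, of which 999 were shared, and without DMSO day 1 replicate 3 for 587, of which 583 were shared. Without replicate 1 or 2 of encorafenib day 1, replicate 3 of encorafenib day 5 or replicate 1 of DMSO day 5 it was called for 581, 645, 671 and 644 genes, and in a fit to the 12 NaJa-D libraries for 261. Fer1l4, of the ferlin family, and Sprr2a3, a cornified envelope gene of a family with near-identical copies, fell in encorafenib and rose in DMSO, as Slurp1 did. Fer1l4 was at 26.5, 24.4 and 14.9 CPM and 12.02, 9.28 and 10.7 CPM in encorafenib and at 1.15, 1.27 and 1.41 CPM and 4.96, 5.16 and 5.24 CPM in DMSO (difference -3.04, SE 0.34, adjusted p = 4.34e-07). Its lowest day 1 value was that of replicate 3. Ctsw, a cathepsin, was at 6.07, 6.87 and 6.79 CPM and 5.16, 5.44 and 5.44 CPM in encorafenib and fell in DMSO (-1.58), which gave a difference of 1.29 (SE 0.15, adjusted p = 9.41e-07). In DMSO the genes with the highest log2 fold changes by the naming rule, AU021092, Celf5 and Fgf15, rose by 2.12 to 2.34, and mt-Co1, mt-Nd4 and Prl2c3 had the lowest. Of the first 3, AU021092 also rose in encorafenib (1.03, SE 0.12, adjusted p = 6.63e-08), and Celf5, an RNA-binding protein, and Fgf15, an ileal hormone, had 0.41 (adjusted p = 0.017) and 0.18 (adjusted p = 0.227). At day 1 their encorafenib libraries were already above those of DMSO (1.74 and 1.68).

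**Figure D3:**
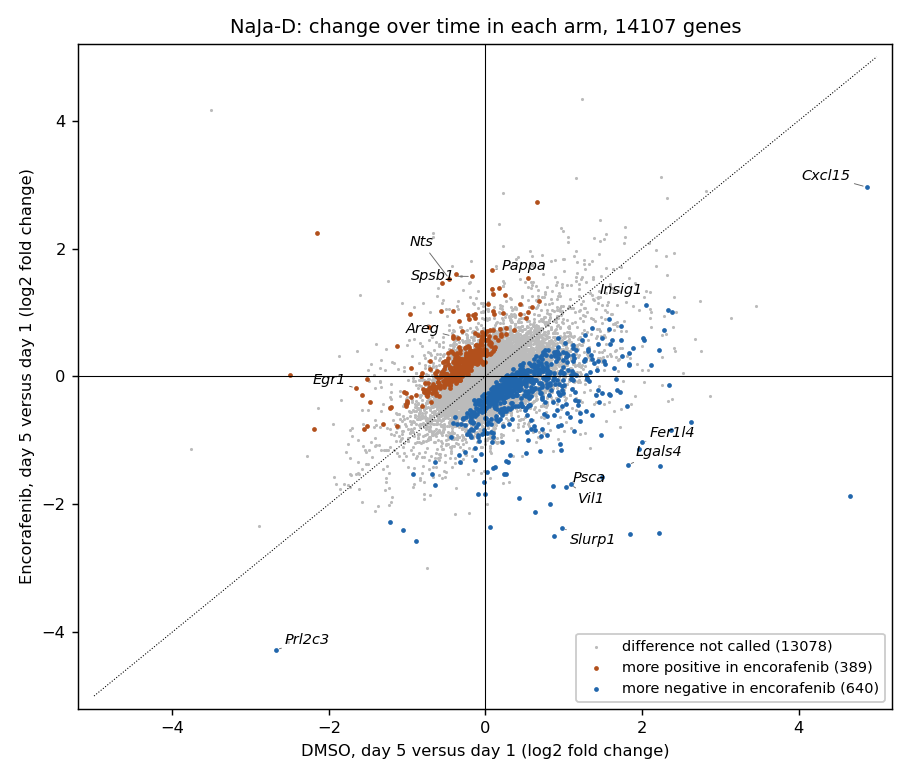
Log2 fold change from day 1 to day 5 in encorafenib (y axis) against DMSO (x axis) for 14107 genes, colored where the difference was called (389 more positive and 640 more negative in encorafenib), with the dotted line at equal change. Slurp1, Psca, Vil1 and Lgals4 lie where DMSO rose and encorafenib fell, and Nts, Spsb1 and Pappa where encorafenib rose and DMSO did not.

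Genes of DNA replication fell in both arms. Of 24 S phase genes 19 fell in encorafenib and none rose (median -0.38), where 14.2% of all genes fell and 12.5% rose. In DMSO 17 fell and none rose (median -0.29), against 15.3% and 13.7% of all genes. The difference was called for 2, Ccne2 and Uhrf1, both lower in encorafenib, against 4.54% of all genes. Cdc6, which loads the replicative helicase, fell furthest, from 43.1, 43.2 and 49.1 CPM to 24.6, 25.6 and 24.5 CPM (log2 fold change -0.85, SE 0.05, adjusted p = 9.38e-13). Ccne2 and Ccne1, the cyclins E, fell by 0.75 and 0.60, and E2f1, the factor that drives these genes, fell from 58.6, 61.6 and 73.1 CPM to 40.3, 39.1 and 41.997 CPM (log2 fold change -0.66, SE 0.07, adjusted p = 4.26e-08). Mcm6, a helicase subunit, fell from 209, 208 and 259 CPM to 157, 172 and 155 CPM (log2 fold change -0.48, SE 0.07, adjusted p = 2.42e-06) and in DMSO by 0.30. It was lower in encorafenib than in DMSO by 0.27 at day 1 and 0.44 at day 5. The Mcm6 window (chr1:128359706-128359955, minus strand) is shown because it holds 2 copies of an E2F motif (TTTGGCGC), in capitals, 110 and 47 bases before the start. These letters were found in 3 of 20 S phase windows (Mcm5, Mcm6 and Pola1; 15%) and in 0.89% of all windows, both strands read.
Mcm6 promoter: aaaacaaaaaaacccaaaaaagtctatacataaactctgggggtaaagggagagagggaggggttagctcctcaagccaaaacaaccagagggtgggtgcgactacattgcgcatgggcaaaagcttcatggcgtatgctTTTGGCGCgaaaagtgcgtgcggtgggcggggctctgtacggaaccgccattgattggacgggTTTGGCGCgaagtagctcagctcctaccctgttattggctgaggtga
All 3 of these genes fell in encorafenib, and so did 16 S phase genes outside them. Genes of G2 and mitosis fell less evenly. Of 24, 8 fell and 1 rose (median -0.08), where under library size alone 6 fell and 4 rose and the median turned to 0.03, and in DMSO 14 fell and none rose (median -0.24). The difference was positive and called for 6 (Ccnb1, Ccnb2, Aurka, Kif20a, Cdc20 and Tpx2), against 2.76% of all genes, and negative for none, against 4.54%. Mki67, the proliferation antigen, fell from 766, 783 and 719.7 CPM to 484, 528 and 467 CPM (log2 fold change -0.62, SE 0.10, adjusted p = 1.73e-05) and fell by 0.52 in DMSO. Ccnb2, a mitotic cyclin, rose from 46.02, 45.4 and 51.4 CPM to 58.8, 67.001 and 65.4 CPM (log2 fold change 0.42, SE 0.05, adjusted p = 1.86e-07), with DMSO at -0.02 (adjusted p = 0.772). Cdc20, an activator of the anaphase complex, was at 73.8, 78.1 and 88.6 CPM and 82.1, 90.6 and 90.7 CPM, overlapping, and fell by 0.45 in DMSO.

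Of 15 genes of a list of D cyclins other than Ccnd1, their kinases, inhibitors, RB family genes and Btg genes 7 rose, 1 fell and 7 were not called in encorafenib. In DMSO 5 rose and 1 fell. For this list and the next, 12.5% of all genes rose and 14.2% fell in encorafenib (13.7% and 15.3% in DMSO). Cdkn1a (p21) rose from 25.4, 23.9 and 26.4 CPM to 39.4, 36.4 and 37.9 CPM (log2 fold change 0.59, SE 0.06, adjusted p = 3.09e-08) and Cdkn2b (p15) from 31.5, 30.3 and 40.3 CPM to 57.7, 55.2 and 55.9 CPM (0.74, SE 0.10, adjusted p = 1.89e-06), with 0.65 and 0.84 in DMSO. Ccnd3, cyclin D3, was the member of this list that fell (-0.60), and Ccnd1 is given above with the ERK output genes. Of 15 genes of the BCL2 family 7 rose, Bcl2l11, Bmf, Bik, Bid, Bbc3, Mcl1 and Bax, and Bcl2 fell. Mcl1 and Bcl2 protect cells, and the other 6 promote cell death. Bbc3 (PUMA) rose from 2.35, 2.79 and 2.46 CPM to 4.27, 6.22 and 5.33 CPM (log2 fold change 1.07, SE 0.21, adjusted p = 2.22e-04) and in DMSO by 1.09. Bcl2l11 (BIM), a target held down by ERK, rose from 39.9, 41.2 and 32.2 CPM to 52.5, 50.8 and 51.3 CPM (0.45, SE 0.08, adjusted p = 2.61e-05), with 0.65 in DMSO. Bmf was the only member whose difference was called, where 7.29% of all genes were. It was at 18.7, 18.9 and 14.3 CPM and 28.7, 22.8 and 26.4 CPM in encorafenib and rose further in DMSO, from 6.18, 5.63 and 3.91 CPM to 22.6, 23.7 and 17.7 CPM (difference -1.45, SE 0.20, adjusted p = 7.01e-06). Bcl2 fell from 27.5, 27.6 and 26.7 CPM to 21.3, 20.5 and 20.5 CPM (log2 fold change -0.39, SE 0.07, adjusted p = 6.41e-05), with -0.20 (adjusted p = 0.0209) in DMSO.

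Genes of cholesterol synthesis are switched on by SREBP factors when the membranes of the endoplasmic reticulum hold little cholesterol. Of 25 genes of cholesterol synthesis 13 rose and none fell in encorafenib (median 0.24), where 12.5% of all genes rose and 14.2% fell. In DMSO 17 rose and none fell (median 0.47), against 13.7% and 15.3% of all genes. The difference was negative and called for 5 (Hmgcs1, Lss, Hsd17b7, Tm7sf2 and Stard4), against 4.54% of all genes, and positive for none, against 2.76%. These 5 rose less in encorafenib or, for Hsd17b7, were not called there. Insig1 (ENSMUSG00000045294, chromosome 5, 28071363 to 28078662, plus strand), which holds SREBP back in the endoplasmic reticulum, rose most, from 82.5, 85.6 and 82.6 CPM to 196, 194 and 190.0 CPM. The days were far apart (log2 fold change 1.21, SE 0.06, adjusted p = 4.29e-14), and in DMSO the change was 1.37 (SE 0.07, adjusted p = 2.26e-14). Mvd and Nsdhl, enzymes of the pathway, rose by 0.55 and 0.52 in encorafenib and by 0.83 and 0.86 in DMSO. Hmgcs1, the synthase at its entry, rose from 174, 165 and 176 CPM to 227, 204 and 206 CPM (log2 fold change 0.31, SE 0.06, adjusted p = 9.35e-05) and by 0.70 in DMSO, to 268, 248 and 259.5 CPM (difference -0.39, SE 0.08, adjusted p = 0.00127; without DMSO day 1 replicate 3 -0.36, adjusted p = 0.0134). Tm7sf2, a sterol reductase, had 0.28 (SE 0.08, adjusted p = 0.00597) in encorafenib and 1.13 (SE 0.09, adjusted p = 1.13e-10) in DMSO, and its call in encorafenib was lost without any 1 of 5 libraries (0.23 to 0.31, adjusted p up to 0.0401). Fatty acid genes moved in part. Of 17 efflux and fatty acid genes 6 rose and 1 fell, with the desaturases Scd1 (0.43), Scd2 (0.40) and Fads1 (0.54) among the 6. Most promoters of the cholesterol genes held a CCAAT box (CCAAT), the site of the NF-Y factor that acts beside SREBP. It was found in 16 of 17 windows (94.1%), against 40.5% of all windows, on either strand. The box was also in 13 of 20 S phase windows (65%) and 6 of 11 of feedback inhibitors (54.5%). In other lists it was in 5 of 13 windows of ERK target factors, 2 of 10 of enterocyte genes and 1 of 7 of EGFR family ligands. A sterol element (TCACNCCAC) was found in 1 of the 17, Hmgcs1, and in 1.29% of all windows. The windows of Insig1 (chr5:28071162-28071411, plus strand), Hmgcs1 (chr13:119690101-119690350, plus strand) and Mvd (chr8:122443423-122443672, minus strand) are shown for members that rose, with the CCAAT boxes, and in Hmgcs1 also the sterol element that begins 137 bases before the start, in capitals (ATTGG where the box lies on the opposite strand).
Insig1 promoter: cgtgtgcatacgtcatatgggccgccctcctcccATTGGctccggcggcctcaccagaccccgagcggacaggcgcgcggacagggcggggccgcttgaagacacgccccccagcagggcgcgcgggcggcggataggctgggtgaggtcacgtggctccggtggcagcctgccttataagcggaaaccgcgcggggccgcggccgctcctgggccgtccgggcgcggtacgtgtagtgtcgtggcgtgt
Hmgcs1 promoter: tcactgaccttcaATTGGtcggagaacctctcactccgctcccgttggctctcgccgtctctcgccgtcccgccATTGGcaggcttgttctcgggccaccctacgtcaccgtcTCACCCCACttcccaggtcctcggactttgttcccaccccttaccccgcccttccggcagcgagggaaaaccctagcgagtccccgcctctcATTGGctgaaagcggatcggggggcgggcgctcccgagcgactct
Mvd promoter: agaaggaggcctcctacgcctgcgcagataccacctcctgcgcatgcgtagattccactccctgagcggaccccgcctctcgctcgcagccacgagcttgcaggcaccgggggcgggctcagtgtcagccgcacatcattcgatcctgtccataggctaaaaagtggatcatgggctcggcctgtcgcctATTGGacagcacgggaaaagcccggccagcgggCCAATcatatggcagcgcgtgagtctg
The Hmgcs1 window holds 3 boxes, and the Mvd window 2. These lists and motifs were searched with the pathway in view, and no match says more than that the letters are there.

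**Figure D4:**
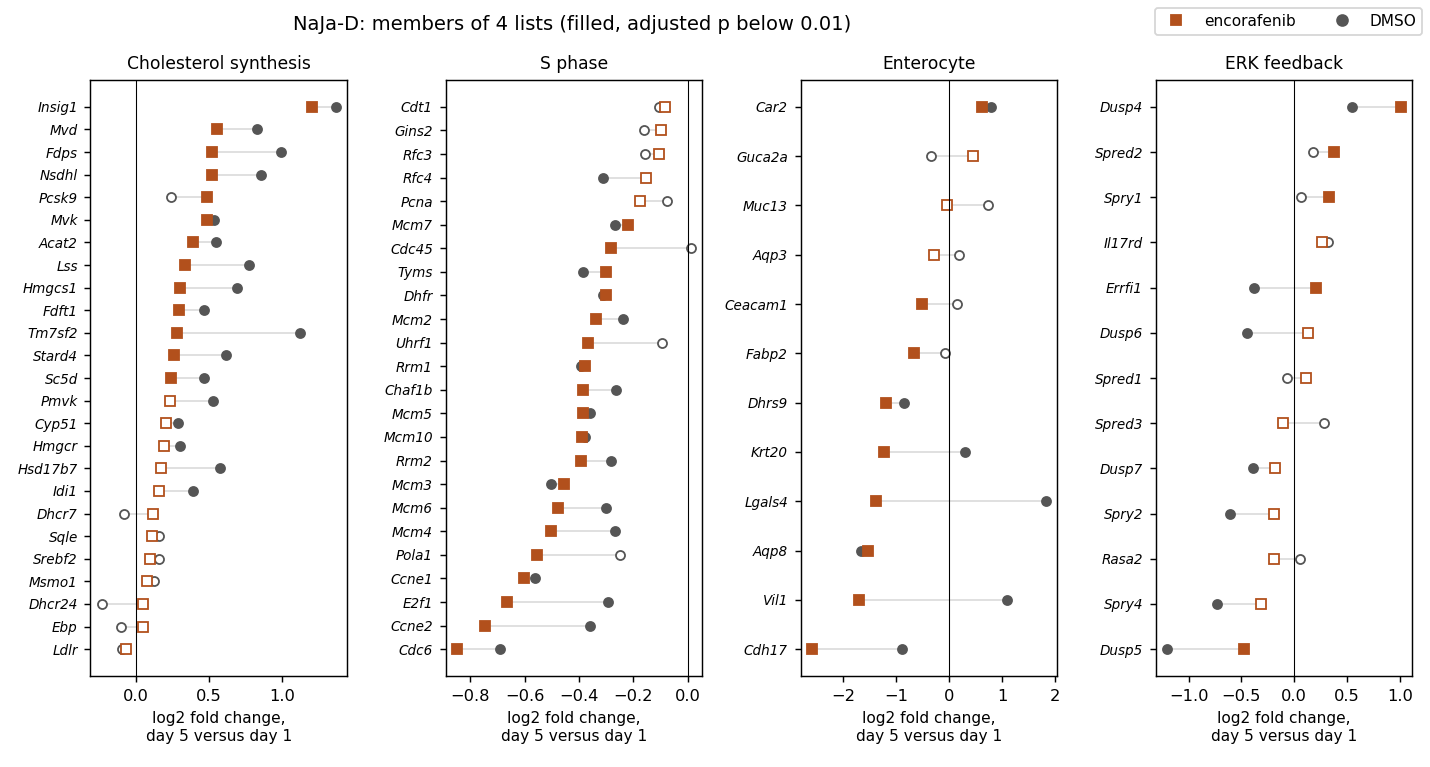
Log2 fold change from day 1 to day 5 (x axis) of every tested member of 4 gene lists (y axis) in encorafenib (squares) and DMSO (circles), filled where called. Most cholesterol genes lie right of 0 and most S phase genes left of 0 in both arms, whereas Lgals4, Vil1 and Krt20 of the enterocyte list and Errfi1 of the feedback list lie on opposite sides.

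Of 24 ribosome biogenesis genes 12 fell and none rose (median -0.21), where 14.2% of all genes fell and 12.5% rose. In DMSO 21 fell and none rose (median -0.44), against 15.3% and 13.7% of all genes. The differences between the arms lay between -0.34 and 0.42, with adjusted p values of at least 0.0131. Without replicate 3 of encorafenib day 1 the difference was called for 9, all positive, where 1523 of all 14107 genes had a positive difference called. Dkc1, of the pseudouridine synthase complex, fell from 103, 104 and 111 CPM to 69.9, 76.4 and 71.2 CPM (log2 fold change -0.55, SE 0.06, adjusted p = 2.03e-08) and Ncl, nucleolin, by 0.49. Of 21 genes of the ATF4 and amino acid response 10 rose and none fell (median 0.16), and in DMSO 6 rose and 2 fell. Atf4 itself rose from 149, 147 and 133 CPM to 186, 199 and 213 CPM (log2 fold change 0.48, SE 0.05, adjusted p = 9.50e-08), and its targets Trib3 and Ddit4 rose by 1.06 and 0.98, with 1.26 and 1.61 in DMSO. Of 26 lysosome and autophagy genes 11 rose and 1 fell (median 0.13), and in DMSO 8 rose and 4 fell. Sqstm1, an autophagy receptor, rose from 311, 314 and 374 CPM to 489, 506 and 522 CPM (log2 fold change 0.60, SE 0.07, adjusted p = 3.01e-07). Hexa, a lysosomal hexosaminidase, rose from 47.6, 54.7 and 60.7 CPM to 75.1, 71.1 and 77.6 CPM (0.47, SE 0.08, adjusted p = 3.14e-05), with -0.24 (adjusted p = 0.0257) in DMSO and a difference of 0.71 (SE 0.12, adjusted p = 1.20e-04). Ctsl, cathepsin L, was the member that fell (-0.25, SE 0.07, adjusted p = 0.00601), and it fell by 1.04 in DMSO (difference 0.79, SE 0.10, adjusted p = 3.28e-06), and its call in encorafenib was lost without any 1 of 5 libraries (-0.15, adjusted p = 0.0746, without replicate 3 of day 1). Of 25 nuclear respiratory chain genes 3 rose and 1 fell, and 1 differed between the arms, where 7.29% of all genes did. Without replicate 3 of encorafenib day 1 the counts were 9 rising, 0 falling and 17 with a positive difference. In that fit 2165 of all 14107 genes rose, 2243 fell and 1523 had a positive difference.

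Of 29 matrix and integrin genes 13 fell, 4 rose and 12 were not called (median -0.23), where 14.2% of all genes fell and 12.5% rose. In DMSO 11 fell, 2 rose and 16 were not called (15.3% and 13.7% of all genes fell and rose). Lama3, a chain of epithelial laminins, fell furthest. It was at 582, 639 and 725 CPM at day 1 and 308, 279 and 285 CPM at day 5 (log2 fold change -1.15, SE 0.07, adjusted p = 2.31e-12), with -1.29 in DMSO. Itga6, the integrin chain that binds laminin, fell by 0.58. Col18a1, a basement membrane collagen, fell from 554, 602 and 682 CPM to 347, 313 and 356 CPM (log2 fold change -0.85, SE 0.09, adjusted p = 3.49e-08), with -0.21 (adjusted p = 0.0746) in DMSO and a difference of -0.64 (SE 0.13, adjusted p = 0.00126). The 4 genes that rose were Tnc, tenascin C (0.58, SE 0.06, adjusted p = 4.97e-08, difference 0.58, SE 0.09, adjusted p = 4.81e-05), Col12a1 (0.56), Itga2 (0.64) and Fras1 (0.43). Of 20 genes of the YAP response and the fetal intestine 9 fell and 4 rose (median -0.27), where under library size alone 5 fell and 6 rose. Ccn1, a YAP target, fell from 581, 613 and 724 CPM to 436, 473 and 476 CPM (log2 fold change -0.47, SE 0.06, adjusted p = 1.92e-06), whereas Ly6a (Sca-1), a marker of the fetal-like state, rose from 1414, 1608 and 1854 CPM to 2377, 2443 and 2394 CPM (0.57, SE 0.08, adjusted p = 1.91e-06). Ly6 genes are close copies, so their counts may be split unevenly. Spp1, osteopontin, rose from 37.4, 47.9 and 46.1 CPM to 56.1, 55.6 and 58.96 CPM (0.39, SE 0.08, adjusted p = 2.26e-04) and fell in DMSO (-0.43), where it was higher at both days. Of 16 matrix proteases and inhibitors 2 rose, Pappa and Serpinb1a, and 5 fell (4 and 4 under library size alone), with Adamts15 (-1.58, SE 0.18, adjusted p = 6.48e-08), Serpinb2 (-0.90) and Timp1 (-0.74) furthest down.

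Genes of class I antigen presentation rose in part. Of 21, 15 were in the table, and 5 rose and none fell (median 0.28), where 12.5% of all genes rose and 14.2% fell. In DMSO 6 rose and 4 fell (13.7% and 15.3% of all genes). B2m (ENSMUSG00000060802, chromosome 2, 122147686 to 122153083, plus strand), the light chain of class I molecules, was at 81.4, 90.7 and 98.7 CPM at day 1 and 171, 178 and 184 CPM at day 5. The days were apart (log2 fold change 0.98, SE 0.07, adjusted p = 1.80e-11). In DMSO it rose less, from 68.4, 81.97 and 81.2 CPM to 95.6, 117 and 103 CPM (log2 fold change 0.44, SE 0.07, adjusted p = 1.23e-05), and the difference was 0.54 (SE 0.10, adjusted p = 4.78e-04). H2-K1, H2-T23, H2-Q4 and Tap2 were the other members that rose, by 0.38 to 0.85 (Tap2 0.75 to 0.82 and not called without any 1 of 3 libraries), and H2 genes share sequence, so counts may be split between them. Of 18 chemokines and secreted factors 6 rose and 1 fell (median 0.37). Beside Cxcl15, Cxcl3 rose from 25.8, 27.4 and 22.3 CPM to 46.8, 43.04 and 45.8 CPM (log2 fold change 0.85, SE 0.07, adjusted p = 7.06e-10), Cxcl5 from 184, 180.2 and 138 CPM to 229, 217 and 224 CPM (0.43, SE 0.09, adjusted p = 5.31e-04), with its day 1 minimum in replicate 3, and Vegfa, the vascular growth factor, from 105, 108 and 89.2 CPM to 183, 175 and 184 CPM (0.85, SE 0.07, adjusted p = 1.24e-10). All of these rose in DMSO too, Cxcl5 and Cxcl15 further on the log2 scale than in encorafenib (differences -0.88 and -1.91). The Cxcl15 difference was not called without DMSO day 1 replicate 1 (-1.88, adjusted p = 0.0128) or replicate 3 (-1.40, adjusted p = 0.028).

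NRF2 targets, which protect cells from electrophiles, went both ways, with 5 of 20 rising and 5 falling (of all genes 12.5% rose and 14.2% fell). Nqo1 fell from 8.47, 7.74 and 9.23 CPM to 3.43, 3.11 and 2.96 CPM (log2 fold change -1.42, SE 0.12, adjusted p = 2.44e-10), with 0.13 (adjusted p = 0.423) in DMSO, and Gsta4, a glutathione transferase, fell by 0.39 in encorafenib and rose by 1.45 in DMSO (difference -1.84, SE 0.13, adjusted p = 5.95e-11). Osgin1 rose from 35.5, 36.6 and 41.2 CPM to 51.3, 50.1 and 57.99 CPM (0.49, SE 0.08, adjusted p = 3.95e-05). Of 15 WNT feedback and stem cell genes 2 rose and 3 fell (2 and 1 under library size alone), near the shares of 12.5% and 14.2% of all genes. Lgr5, the stem cell receptor, was low and rose from 1.29, 1.56 and 1.598 CPM to 2.86, 3.095 and 2.77 CPM (log2 fold change 0.99, SE 0.13, adjusted p = 1.13e-06), as in DMSO (0.98). Rnf43, which removes WNT receptors, fell from 315, 320.5 and 337 CPM to 245, 224 and 231 CPM (-0.48, SE 0.07, adjusted p = 6.22e-06). Axin2, a WNT target, fell in encorafenib (-0.21) and rose in DMSO (0.23), and the difference was -0.44 (SE 0.09, adjusted p = 9.37e-04). Its fall in encorafenib was not called without any 1 of 5 libraries (-0.18 to -0.23, adjusted p up to 0.0459). Notum, a WNT inhibitor, was at 5.98, 6.76 and 4.85 CPM and 6.67, 6.12 and 7.13 CPM, overlapping, while in DMSO it rose from 3.204, 4.62 and 3.01 CPM to 11.9, 14.6 and 12.03 CPM (difference -1.67, SE 0.28, adjusted p = 1.73e-04). Of 19 genes of the TGF-beta and BMP pathways 4 rose and 3 fell, against 12.5% and 14.2% of all genes. Tgfb3, a ligand, rose from 7.496, 8.08 and 9.72 CPM to 13.7, 14.1 and 12.6 CPM (0.70, SE 0.09, adjusted p = 6.14e-07; difference 0.74, SE 0.14, adjusted p = 8.54e-04), and Inhba, the activin subunit, fell from 199, 197 and 229 CPM to 125, 105 and 102 CPM (-0.91, SE 0.08, adjusted p = 1.13e-09). The engineered genes moved little. Braf was at 51.4, 46.9 and 39.7 CPM and 41.9, 38.1 and 37.99 CPM (-0.22, adjusted p = 0.0806), Trp53 at 129, 124 and 128 CPM and 141, 137 and 143 CPM (0.15, adjusted p = 0.025), and Apc at 183, 173 and 188 CPM and 162, 150.1 and 133 CPM (-0.29, adjusted p = 0.00606, and not called without any 1 of 4 libraries), where gene counts do not show the allele.

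The change from day 1 to day 5 of encorafenib differed between NaJa-D and NaJa-F for 3375 genes (23.9%) and between NaJa-D and NaJa-G for 5284 (37.5%). Both comparisons use the same NaJa-D libraries. NaJa-F has 2 libraries at day 5. Without replicate 3 of NaJa-D encorafenib day 1 the counts were 5127 and 6292, and without replicate 1 of NaJa-F day 5 the first was 1943. Among the genes more positive in NaJa-D than in NaJa-F, Cxcl15 had 2.96 in NaJa-D and 0.92 (adjusted p = 0.0308) in NaJa-F (difference 2.04, SE 0.37, adjusted p = 1.68e-04). Serpinb1a, an inhibitor of neutrophil proteases, rose in NaJa-D from 10.4, 10.2 and 11.4 CPM to 21.3, 16.03 and 19.7 CPM and fell in NaJa-F from 55.4, 52.5 and 49.3 CPM to 24.2 and 21.6 CPM (difference 2.01, SE 0.13, adjusted p = 5.88e-11). Cd200r3, a receptor of the immunoglobulin family, and Klhl30, of the kelch family, had differences of 2.26 and 1.91, with a fall in NaJa-F in both. Spsb1, which rose in NaJa-D, had -0.10 (adjusted p = 0.476) in NaJa-F and -0.10 (adjusted p = 0.442) in NaJa-G, and the differences from NaJa-D were 1.67 (SE 0.16, adjusted p = 2.83e-08) and 1.66 (SE 0.16, adjusted p = 2.23e-09). Prl2c3 fell in all 3 lines and further in NaJa-D (difference from NaJa-F -2.45, SE 0.29, adjusted p = 8.47e-07), and Gm42664, Slc17a9, a nucleotide transporter, and Zan had differences of -2.82, -2.18 and -2.04 (Slc17a9 without NaJa-F day 5 replicate 1 -2.08, adjusted p = 0.011).

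Against NaJa-G the largest positive differences among eligible genes included genes that fell less in NaJa-D. Sprr2a3 fell in NaJa-D from 147, 134 and 170.5 CPM to 104, 96.7 and 95.9 CPM and in NaJa-G from 84.6, 75.8 and 87.6 CPM to 10.03, 9.35 and 8.14 CPM (difference 2.58, SE 0.12, adjusted p = 1.57e-14). Sprr2h had -0.79 in NaJa-D and -4.60 in NaJa-G (difference 3.81, SE 0.26, adjusted p = 6.97e-12). Grhl3, a factor of barrier formation, rose in NaJa-D by 0.39 and fell in NaJa-G by 2.23 (difference 2.62, SE 0.15, adjusted p = 4.54e-13). Tesc, a calcium-binding protein, had -0.21 (adjusted p = 0.0667) and -2.86 (adjusted p = 6.82e-18) (difference 2.65, SE 0.14, adjusted p = 8.39e-14). Arhgef26, an exchange factor of small GTPases, Clca3a1 and Clca3b, chloride channel regulators with close copies, and Gm16026 rose in NaJa-G, and the differences of NaJa-D from it were -2.64, -2.43, -2.15 and -2.06. Slurp1 fell in all 3 lines (NaJa-D -2.37, NaJa-F -2.95, NaJa-G -4.19), as did Psca, Krt14 and Aldh3a1. Vil1 had 0.23 (adjusted p = 0.309) in NaJa-F and -1.47 (adjusted p = 3.42e-07) in NaJa-G. Nts rose by 1.82 in NaJa-G, as it had in NaJa-D, and had 0.20 (adjusted p = 0.15) in NaJa-F. Dcn, the fibroblast marker, had -0.06 (adjusted p = 0.894) in NaJa-F and 3.49 (adjusted p = 1.51e-14) in NaJa-G, where it was at 1.202, 0.991 and 1.19 CPM and 11.97, 12.9 and 12.9 CPM.

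**Figure D5:**
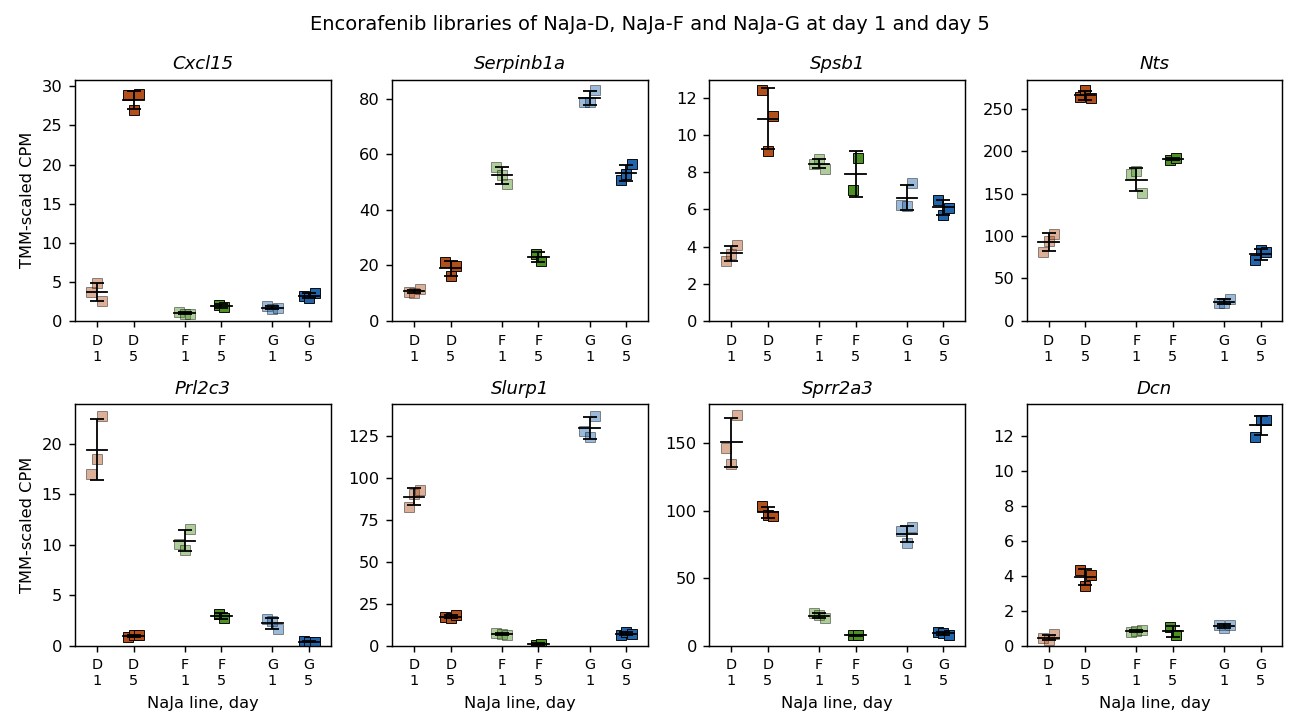
TMM-scaled CPM (y axis, from 0) of 8 genes in the encorafenib libraries of NaJa-D, NaJa-F and NaJa-G at days 1 and 5 (x axis), with points for libraries and bars for mean and SD (n = 3, and 2 for NaJa-F at day 5). Cxcl15 and Spsb1 are higher at day 5 mainly in NaJa-D, Serpinb1a rises in NaJa-D and falls in the other lines, and Slurp1 and Prl2c3 fall in all 3.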

How the data were processed

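RNA-seq counts of 34 libraries were used as deposited. The authors sequenced bulk libraries made from total RNA with standard Illumina protocols and aligned reads to the mouse genome GRCm38 with STAR (version 2.5.2b in the submitters' processing notes, which also list Trimmomatic 0.39). The deposited values are whole-number counts per Ensembl gene for each library. The counting tool, its annotation and its use of strand were not given in the sources used here. The table holds 14107 genes, and the smallest count of a gene summed over libraries was 360, so genes below some level had been left out. GENCODE M21 gave a symbol and position for 14064 identifiers and none for 43. Totals were 46007050 to 80121299 counts. Intervals from depth were not used, since the variance between libraries was at least 10.2 times the counting variance in NaJa-D pairs.

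Counts were scaled with TMM factors (edgeR 4.0.16, R 4.3.3) and tested with limma-voom (limma 3.58.1) in a model with 1 mean for each of 12 groups (line, treatment and day) over all 34 libraries. Contrasts were day 5 against day 1 of encorafenib in NaJa-D, the same in DMSO, the difference of both, and the difference of the encorafenib change from NaJa-F and from NaJa-G. Benjamini-Hochberg adjustment ran over all 14107 genes, with calls below 0.01. Fold changes are log2. For named genes, the rule took called genes with a mean of at least 2 log2 CPM over the libraries compared, ordered by fold change. For day 5 against day 1 in encorafenib and in DMSO it also required no overlap between groups. The differences between arms and between lines had no overlap rule. Members of gene lists were named beside these genes. There were 43 lists with 828 symbols, of which 123 entries were not among the genes tested. Some members are not reported here by name. The members and lists were chosen with earlier results of these data known.

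Alternatives were edgeR's quasi-likelihood test, DESeq2 (1.42.0), limma-trend, other scalings and weights, fewer libraries in the fit, other thresholds, each library left out and the replicate number as a block. Pairing by number was looked at after group means were removed, over genes with a mean of at least 2 log2 CPM. Correlations of these deviations between same-numbered libraries lay between -0.267 and 0.191, which showed no pairing. With 3 libraries in a NaJa-D group this check cannot exclude it. Simulated data for the encorafenib comparison held 14107 genes. Of these, 66, 67 and 67 were changed by 0.5, 1 and 2 on the log2 scale, and the others were drawn around 1 mean per line. In these data limma recovered 57.6%, 82.1% and 97% of the changed genes, in this order, and called 4 unchanged genes. Far fewer genes were changed than the 26.7% called in the real comparison. Whether these rates hold with that many changes was not tested. Nor was it tested where 1 library stands apart from its group, as at day 1 of encorafenib. Promoter windows came from RefSeq (GRCm38.p6).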

Additional observations from a re-analysis of the deposited data

Results flagged for a closer look

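The change over time in encorafenib differed from that in DMSO for 1029 genes, from that of NaJa-F for 3375 and from that of NaJa-G for 5284, each by limma's test of the difference with adjustment over 14107 genes. Against DMSO the named positive differences were 1.99 for Nts, 1.74 for Spsb1, 1.58 for Pappa, 1.49 for Cntn2, 1.47 for Egr1 and 1.29 for Ctsw. The named negative differences were -3.35 for Slurp1, -3.21 for Lgals4, -3.04 for Fer1l4, -2.78 for Vil1, -2.76 for Psca and -1.97 for Sprr2a3. For these 6 genes the encorafenib libraries started above those of DMSO at day 1 and fell while DMSO rose. Against NaJa-F they were 2.26 for Cd200r3, 2.04 for Cxcl15, 2.01 for Serpinb1a and 1.91 for Klhl30, and -2.82 for Gm42664, -2.45 for Prl2c3, -2.18 for Slc17a9 and -2.04 for Zan. Replicate 3 of encorafenib day 1 lay below the other libraries of its group for Cd200r3, Gm42664, Slc17a9 and Zan (3.76, 3.65 and 1.88 CPM, 8.34, 7.84 and 3.91 CPM, 25.2, 28.4 and 15.6 CPM and 11.2, 11.2 and 4.003 CPM). Against NaJa-G they were 3.81 for Sprr2h, 2.65 for Tesc, 2.62 for Grhl3 and 2.58 for Sprr2a3, and -2.64 for Arhgef26, -2.43 for Clca3a1, -2.15 for Clca3b and -2.06 for Gm16026.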

How the results depend on the processing

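The 5 counts of called genes stayed within 1.5 times under edgeR, DESeq2, limma-trend, RLE size factors and library size alone. A filter on low counts kept all 14107 genes, so its counts were the same by construction and are no check. Library quality weights gave 6312 calls between the days in encorafenib, 3932 for the difference from DMSO and 8383 for that from NaJa-G. Fitting only the groups compared gave 1270 for encorafenib, 261 for the difference from DMSO and 1557 for that from NaJa-F, and fitting the 12 NaJa-D libraries gave 2511 and 261 for the first 2. A requirement of at least 1 on the log2 scale left 354 in encorafenib, 412 in DMSO, 181 for their difference, 560 against NaJa-F and 1035 against NaJa-G, and an adjusted p below 0.05 gave 2401 and 5486 for the differences from DMSO and NaJa-F. With 1 library left out the counts ranged from 2913 to 4408 for encorafenib, from 3046 to 3591 for DMSO, from 581 to 3104 for their difference, from 1943 to 5127 against NaJa-F and from 4519 to 6292 against NaJa-G. The replicate number as a block gave 3507, 4081, 1003, 3308 and 5096 calls in this order, and since no pairing by number was seen this is given as a check only. Scaling by library size alone turned the direction of Ereg in encorafenib to 0.0414, and it was not called there either way. Of 242 gene results, 30 lost their call without at least 1 library, 6 of them without 1 library only. More were lost with fewer libraries in the fit. Fitting only the groups compared lost the call of 62 gene results, and fitting only the 12 NaJa-D libraries that of 38. The cause of these shifts was not tested. Genes below 1 CPM, such as Dcn at day 1, rest on fewer counts than the others named, and the effect of depth was not tested.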

Other observations

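Further lists gave smaller or mixed counts between the days of encorafenib, where 12.5% of all genes rose and 14.2% fell. Counts near these shares say nothing particular about a list. Of 19 interferon response genes 3 rose and none fell, where Bst2, an antiviral membrane protein, rose from 16.05, 17.02 and 20.8 CPM to 26.6, 26.5 and 28.6 CPM (log2 fold change 0.61, SE 0.08, adjusted p = 1.21e-06; difference from DMSO 0.49, SE 0.12, adjusted p = 0.00711; 0.40 to 0.52 and not called without any 1 of 8 libraries), and Usp18, a brake on interferon signaling, rose by 0.77. Of 17 genes of the unfolded protein response 3 rose and 3 fell, with Xbp1, its transcription factor, at 0.72 (SE 0.07, adjusted p = 2.50e-09) and in DMSO at 0.64. The chaperone Hspa5 was at 817, 915 and 1069 CPM and 812, 823 and 867 CPM, which overlapped, and fell by 0.67 in DMSO (difference 0.51, SE 0.11, adjusted p = 0.00269; 0.42 to 0.48 and not called without any 1 of 3 libraries). Of 27 glycolysis and hypoxia genes 4 rose and 4 fell, with Bnip3, a mitophagy receptor induced by hypoxia, rising from 14.5, 12.4 and 13.8 CPM to 23.2, 22.5 and 21.8 CPM in encorafenib and from 15.4, 14.1 and 10.1 CPM to 32.5, 40.7 and 45.03 CPM in DMSO (difference -0.84, SE 0.15, adjusted p = 2.97e-04).

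Of 21 other receptor kinases and ligands 1 rose and 3 fell. The lists of this paragraph are likewise set against 12.5% of all genes rising and 14.2% falling, and 7.29% called for the difference between the arms. Gas6, a ligand of the AXL family, rose from 14.99, 16.2 and 16.8 CPM to 23.1, 23.003 and 24.7 CPM (log2 fold change 0.56, SE 0.07, adjusted p = 1.90e-07; in DMSO -0.05, adjusted p = 0.596; difference 0.62, SE 0.10, adjusted p = 8.66e-05), and Met, the hepatocyte growth factor receptor, fell from 331, 351 and 422 CPM to 250.4, 246 and 231 CPM (-0.60, SE 0.09, adjusted p = 3.97e-06), with -0.63 in DMSO. Of 16 kinases and adaptors from RAS to ERK 2 rose and 2 fell, none by more than 0.35 on the log2 scale among those called. Of 12 Notch genes 1 rose and 1 fell, and Jag1 and Notch3 differed between the arms (0.69, SE 0.10, adjusted p = 1.40e-05 and -1.02, SE 0.15, adjusted p = 2.61e-05), with -0.61 and 1.26 in DMSO. Of 12 immune regulators 1 rose and 3 fell, Havcr2 from 19.7, 22.1 and 22.8 CPM to 10.2, 10.5 and 10.9 CPM (-1.03, SE 0.09, adjusted p = 1.13e-09), with -0.85 in DMSO.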
